A study of Mus musculus with 5 samples.

Results

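The microRNAs miR-183, miR-96 and miR-182 are processed from hairpins that lie side by side in the mouse genome, and they were followed in helper T cells during activation. The cluster was taken as 4 probes of the array, 1org-183, 1org-96, 1org-182 and 2org-182*, chosen by name from the 171 microRNA probes. The array carried 178 probes in all, the other 7 being for transfer and small nuclear RNAs. Probe 2org-182* carries the name once used for the less abundant arm of the miR-182 hairpin. The annotation of the array pairs 1org-96 and 1org-182 with their genes, gives none for 1org-183 and 2org-182*, and the number in the name was read as the microRNA's number.

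The cells were mouse CD4-positive, CD25-negative T cells, helper T cells without the CD25-positive fraction that holds most regulatory T cells. Total RNA of activated cells and of unactivated cells, called naive here, shared each of 5 arrays of 2 channels. Overnight activation was covered by 1 array, on which Cy5 marked the activated cells. Activation for 3 days and for 10 days had 2 arrays apiece, 1 in each dye orientation. The sources used here state neither strain, sex and age nor the activating stimulus and culture, and they leave unsaid whether a dye pair came from separate extracts. The control in each hybridisation was naive RNA, so the times share the kind of control, and whether they share a preparation is not known here.

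MicroRNAs guide silencing complexes to messenger RNAs, and bases 2 to 8 at their 5′ end, the seed, account for most of the pairing. The miR-183 cluster is best known from sensory organs, where its 3 microRNAs are made together in hair cells, photoreceptors and sensory neurons. In helper T cells miR-182 is known to be induced by interleukin 2 through the transcription factor STAT5 and to act on the transcript of Foxo1, a transcription factor that keeps T cells quiescent. The comparison made here is whether the members of the cluster moved together after activation.

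The mature sequences are shown because the members resemble one another and yet differed on the arrays. They are RefSeq sequences on GRCm38.p6, where all 4 probe names found a match, and capitals mark the seed.
miR-183-5p: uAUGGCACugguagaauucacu
miR-96-5p: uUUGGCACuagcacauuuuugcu
miR-182-5p: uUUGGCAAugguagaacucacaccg
miR-182-3p: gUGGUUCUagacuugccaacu
All lie on the minus strand of chromosome 6, miR-183-5p at chr6:30169711-30169732, miR-96-5p at chr6:30169506-30169528, miR-182-5p at chr6:30165962-30165986 and miR-182-3p, the star arm, at chr6:30165923-30165943. Probe sequences were not used here, so how far each probe distinguishes these microRNAs is unknown.

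No pair of members shared a whole seed. Counted from 1 at the 5′ end, miR-183 and miR-96 had 6 of 7 seed bases in common and differed by A2U, and miR-96 and miR-182 had 6 of 7 and differed by C8A. Between miR-183 and miR-182 both substitutions stood, A2U and C8A, which left 5 of 7. Over their whole length, however, miR-183 and miR-182 were the closest pair, identical at 18 of 22 bases without gaps, against 13 of 22 for miR-183 and miR-96 and 12 of 23 for miR-96 and miR-182. Among the mature mouse microRNAs of the same table, the seed of miR-96 was shared by miR-1271-5p alone, and the other 3 seeds by none. The star arm had little in common with the other members, at most 4 of 21 bases.

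The hairpin of miR-182 gives 2 of the 4 probes their target, and it is shown with both arms in capitals, the 5′ arm at bases 7 to 31 and the 3′ arm at bases 50 to 70.
Mir182 hairpin: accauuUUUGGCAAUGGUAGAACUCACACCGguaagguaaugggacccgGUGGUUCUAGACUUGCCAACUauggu
Both arms come from one precursor, chr6:30165918-30165992. Mir96 lies at chr6:30169446-30169551 and Mir183 at chr6:30169668-30169737. A single long noncoding RNA, Mirc35hg (chr6:30158640-30174125, 15486 bases), spans the 3 hairpins in the RefSeq annotation. In the direction of transcription Mir183 comes first, Mir96 follows after 116 bases, and Mir182 lies 3453 bases further on. The hairpins thus stand within 3820 bases of each other, with Mir183 and Mir96 as close neighbours and Mir182 apart.

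**Figure D1:**
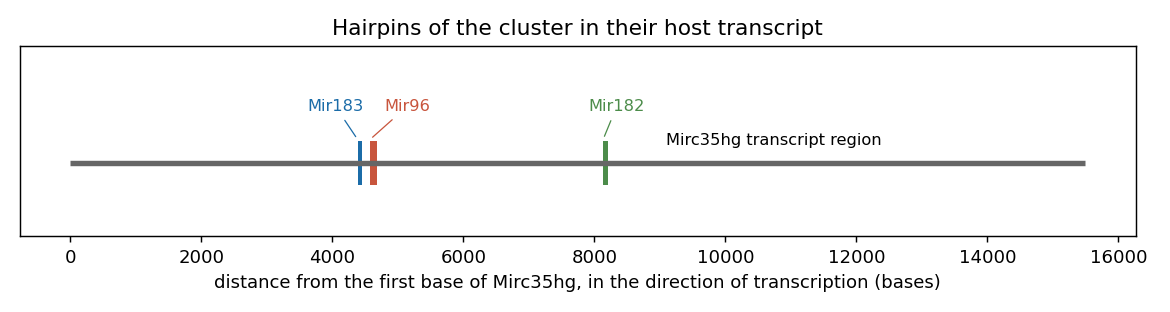
Positions of the Mir183, Mir96 and Mir182 hairpins (coloured bars, to scale) along the transcript region of Mirc35hg, in bases from its first base. Mir183 and Mir96 are separated by 116 bases and Mir182 lies 3453 bases beyond Mir96.

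The promoter window at the annotated start of Mirc35hg is shown because this transcript spans the 3 hairpins. It holds 250 bases before and 50 after the first base (RefSeq, GRCm38.p6, minus strand, chr6:30174076-30174375), with the match to the STAT motif in capitals. Whether the hairpins were transcribed from this start in these cells was not tested.
Mirc35hg promoter: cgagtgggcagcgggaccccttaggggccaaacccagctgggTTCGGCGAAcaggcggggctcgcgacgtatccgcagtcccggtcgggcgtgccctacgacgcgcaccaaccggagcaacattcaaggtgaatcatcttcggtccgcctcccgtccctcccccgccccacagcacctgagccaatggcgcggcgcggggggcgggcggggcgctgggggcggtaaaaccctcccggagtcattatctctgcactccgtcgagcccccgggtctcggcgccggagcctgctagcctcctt
On both strands the STAT motif TTCNNNGAA matched once, at position -208 from the start, and 8.30% of 32851 promoter windows of the same length hold a match. The CCAAT box matched once, at position -69, as in 37.4% of windows. The GC box GGGCGG matched 4 times, at -88, -51, -47 and -33 with the matches at -51 and -47 overlapping, and 35.7% of windows hold at least one. The window had 70.3% G and C, against a median of 52.7% over all windows. These matches describe letters only, and binding was not measured.

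On the arrays the 4 members did not move as one. At day 3 of activation miR-183 and miR-96 stood 14.6-fold and 10.8-fold above naive cells, while neither arm of miR-182 reached 2-fold. At day 10 miR-96 was still 4.71-fold above naive cells, miR-183 was at 1.43-fold, and the star arm of miR-182 was 2.75-fold lower. Overnight all 4 were 4.17-fold to 6.83-fold lower as deposited, on an array where most probes were lower. These folds were taken from log2 ratios of activated over naive RNA. At days 3 and 10 they stand for the mean log2 ratio of 2 arrays, and overnight for 1 array.

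These ratios rest on 2 readings of the deposited values. They were taken to be log2 of Cy5 over Cy3, the likely but unstated form, and the sign of arrays with activated cells in Cy3 was turned. All directions above and below would be opposite with Cy3 as numerator. The arrays had also not been centred. The median microRNA probe stood at -1.75 on the overnight array, at 0.20 and 1.42 on the day 3 arrays, and at -0.51 and -0.38 on those of day 10. Values are therefore given as deposited and, where named so, centred on the median of their array. Across probes, which are not independent replicates, the day 3 arrays correlated with each other at r = 0.66 and the day 10 arrays at r = 0.43. A member was called higher or lower at a time if its arrays had 1 sign and their mean reached 2-fold, a log2 ratio of 1 or -1. This is a rule of size without a test. Signals were not analysed here, so it is unknown which probes rose above background, and the number of arrays limits the precision. In bulk RNA a change per cell and a change in the share of cells that make a microRNA cannot be told apart.

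MiR-183, which lies first in the transcript, had log2 ratios of 3.66 with activated RNA in Cy5 and 4.07 with it in Cy3 at day 3. Both arrays were high, for a mean of 3.87 ± 0.29 (SD, n = 2 arrays) that ranked 6th highest of 171 probes. At day 10 its arrays gave 0.27 and 0.75, both low beside day 3 and below 2-fold, with a mean of 0.51 ± 0.34. Overnight it was at -2.12. The SD within a pair includes the probe's dye effect, since the arrays carry opposite dyes. After centring the means were 3.06 at day 3 (8.31-fold) and 0.96 at day 10, and the overnight value was -0.37.

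MiR-96, in which seed mutations are known to cause hearing loss, had log2 ratios of 3.14 and 3.72 at day 3. Its arrays at day 10 gave 2.06 and 2.41, so the pairs did not overlap, and all 4 values were above 2-fold. The means were 3.43 ± 0.41 at day 3 and 2.23 ± 0.25 at day 10 (SD, n = 2 arrays each), the 10th and the 8th highest of 171 probes. Overnight miR-96 was at -2.25. Centring brought the times level, at 2.62 for day 3 and 2.68 for day 10 (6.15-fold and 6.42-fold), and left the overnight value at -0.51.

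MiR-182, known to act on Foxo1 in helper T cells, had log2 ratios of -0.13 and 0.73 at day 3, on either side of 0. At day 10 they were -0.10 and -1.37, both below 0 and spread wider than those of day 3. The means of 0.30 ± 0.61 and -0.73 ± 0.90 (SD, n = 2 arrays each) ranked 126th and 121st from the top. Overnight it was at -2.06. Relative to the median of its array miR-182 stayed between -0.99 and 0.42 on all 5 arrays. Of the 171 probes, 42 (24.6%) stayed within 1 of the median of every array. MiR-183, miR-96 and the star arm each left that band on at least 1 array.

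The star arm, 2org-182*, had log2 ratios of -0.41 and 2.02 at day 3, values that differed by more than those of any other member at any time. Its mean of 0.80 ± 1.72 (SD, n = 2 arrays) covers 0. At day 10 its arrays gave -1.39 and -1.53, which lay close together and both more than 2-fold lower, with a mean of -1.46 ± 0.10 that ranked 6th lowest of 171. Overnight it was at -2.77, the 7th lowest. It was also 2-fold lower at both times after centring, with -1.03 overnight and -1.01 at day 10, just past the limit. With its estimated dye effect taken off, the centred overnight value was -0.79, short of 2-fold.

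**Figure D2:**
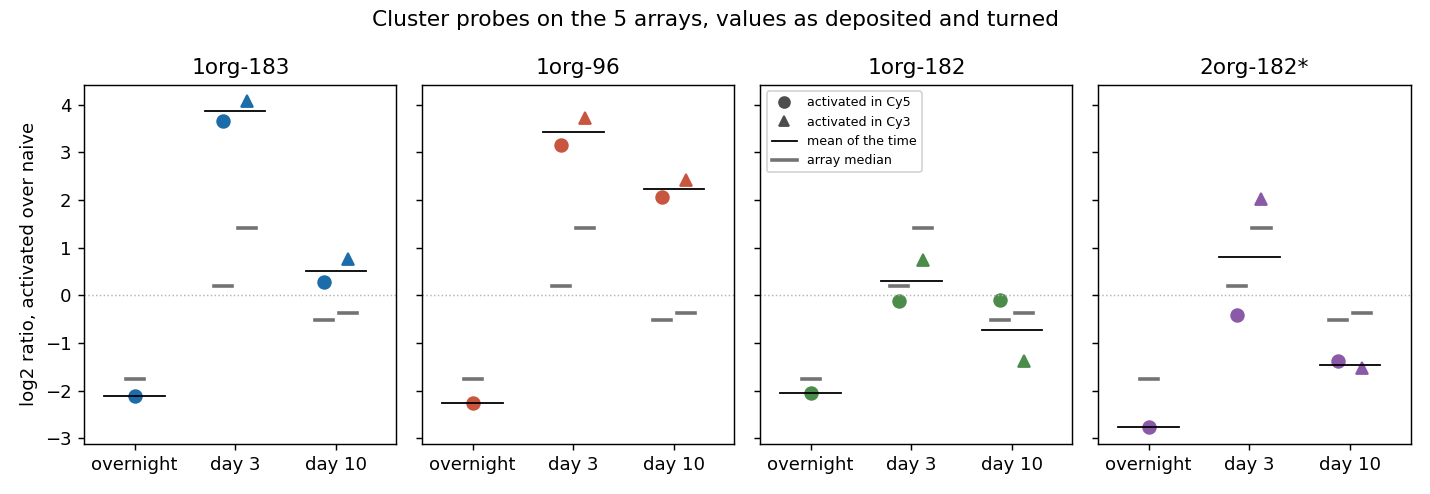
Log2 ratio of activated over naive RNA for each cluster probe (panels) at each time of activation, with circles for activated RNA in Cy5, triangles for Cy3, black lines for the mean of a time and grey dashes for the median of each array's microRNA probes. MiR-183 and miR-96 lie between 3.14 and 4.07 at day 3, well above the array medians of 0.20 and 1.42, while miR-182 lies below the median on both day 3 arrays.

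At day 3, then, 2 of 4 members were at least 2-fold higher than naive, beside 38% of all microRNA probes, and none was lower, beside 12.9%. After centring the same 2 were higher, beside 15.2%, and none lower, beside 19.9%. At day 10 miR-96 was the 1 member called higher (beside 9.94% of probes, and 14.6% after centring) and the star arm the 1 called lower (beside 17%, and 4.09% after centring), with miR-182 lower as well (2 of 4) if the Cy5 array is left out. Overnight 4 of 4 were lower beside 73.1% of all probes, a share that leaves nothing particular to the cluster, and after centring only the star arm was, beside 4.09%. The shares beside each count are the background.

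The changes were also fitted over all 171 microRNA probes with limma, with a term for each time and a single term for dye. The dye term takes a probe's dye effect to be the same at all times. In this fit the spread was estimated across probes, every probe received the same standard error (0.45 at days 3 and 10 and 0.71 overnight, as deposited), and each probe had 1 residual degree of freedom of its own. That residual is how far the dye effects of days 3 and 10 differ, with the shifts of the arrays included as deposited. It was pooled over probes that are not independent. The p-values, adjusted by Benjamini-Hochberg over all probes, cover this spread between arrays only, which may be technical. At day 3 miR-183 (adjusted p = 7.6e-14) and miR-96 (adjusted p = 1.6e-11) passed in limma, and both did so after centring (adjusted p = 2.6e-12 and 1.0e-09). MiR-182 (adjusted p = 0.54) and its star arm (adjusted p = 0.11) did not pass in limma at day 3. In all, 39.2% of probes were called higher there and 18.1% after centring.

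At day 10 miR-96 passed in limma as deposited (adjusted p = 2.8e-05) and after centring (adjusted p = 1.2e-09), where 7.02% and 14% of probes were called higher. The star arm passed as lower in limma (adjusted p = 0.014, beside 11.7% of probes) but not after centring (adjusted p = 0.053). MiR-183 (adjusted p = 0.35, and 0.063 after centring) and miR-182 (adjusted p = 0.23, and 0.75 after centring) did not pass in limma. Overnight there was 1 array, so its spread in limma is borrowed from the dye pairs of days 3 and 10 and says nothing about variation overnight. On that assumption all 4 members were called lower as deposited (limma adjusted p from 0.013 to 0.030, beside 38.6% of probes), and none was after centring (adjusted p from 0.54 to 0.84).

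**Figure D3:**
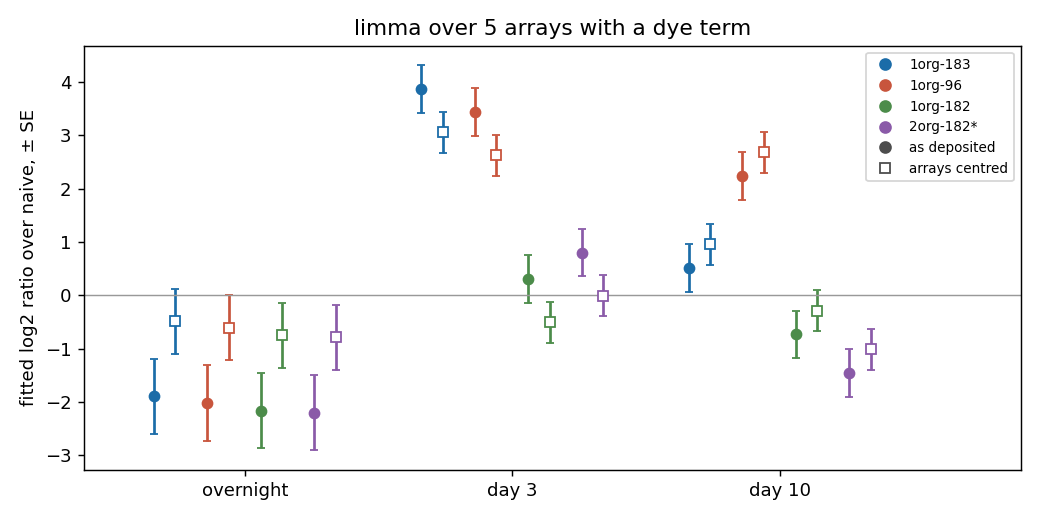
Log2 ratio over naive fitted by limma over the 5 arrays with a dye term, for each cluster probe and time; bars are ± 1 standard error, filled circles values as deposited and open squares values after centring each array. MiR-96 stays at 2.23 or above at days 3 and 10 in both settings, miR-183 is high at day 3 alone, and the overnight values move toward 0 on centring.

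Between days 3 and 10 miR-183 lost most of its difference from naive cells. Its log2 ratio fell by 3.35 as deposited (10.2-fold) and by 2.10 after centring (4.27-fold), and the pairs of arrays did not overlap in either setting. By this rule, which asks for 2-fold between the means and no overlap, 3 of 4 members were lower at day 10 than at day 3, beside 41.5% of all probes. They were miR-183, miR-96 (which fell by 1.20) and the star arm (which fell by 2.26). MiR-182 fell by 1.04 between the means, with overlapping pairs. After centring miR-183 and the star arm, the latter just past 2-fold, met the rule, beside 13.5% of probes, and no member was higher, beside 28.1%, whereas miR-96 (0.06) and miR-182 (0.22) differed by little. Limma called miR-183 lower as deposited (adjusted p = 4.7e-06, beside 43.9% of probes) and after centring (adjusted p = 0.00083, beside 7.6%). For the star arm the limma call was lost on centring (adjusted p = 0.0022 as deposited and 0.15 after). For miR-96 the limma adjusted p was 0.094 as deposited and 0.96 after centring, and for miR-182 it was 0.14 and 0.82.

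**Figure D4:**
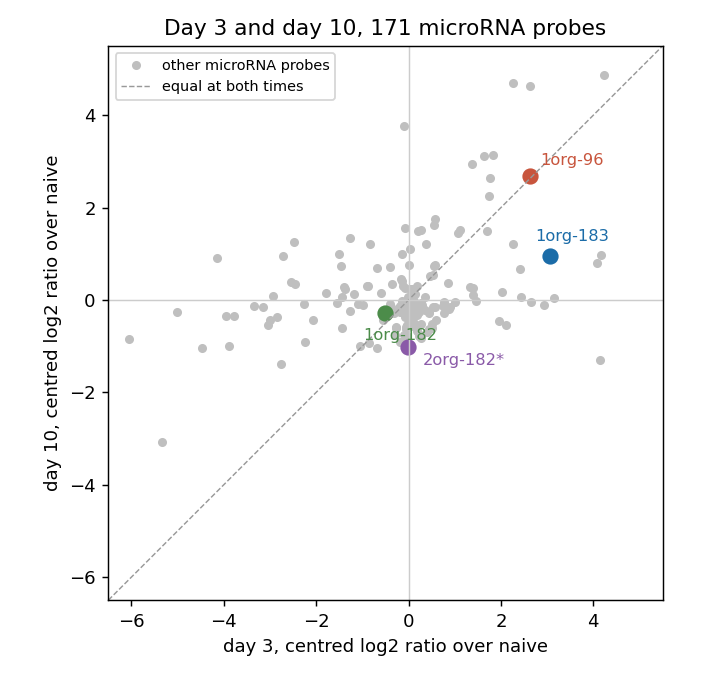
Mean log2 ratio over naive at day 3 (horizontal) and day 10 (vertical), each array centred on its median, for 171 microRNA probes; the dashed line marks equal values. MiR-96 lies on the line at 2.62 and 2.68, miR-183 lies below it at 3.06 and 0.96, miR-182 lies near the centre of the cloud, and its star arm lies toward the lower edge at day 10 (-1.01).

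Differences between members on 1 array do not depend on centring. Here they are differences of changes, not of levels. MiR-183 exceeded miR-96 by 0.52 and 0.35 on the day 3 arrays, while the differences on those of day 10 were -1.79 and -1.66. Their order turned between the times with no overlap, a shift of -2.16 on the log2 scale (4.46-fold). Overnight the difference was 0.13. This shift was not tested.

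MiR-96 exceeded miR-182 by 3.27 and 2.99 at day 3 and by 2.16 and 3.78 at day 10, which in the mean is 8.75-fold and 7.83-fold. All 4 arrays were far above 0, and overnight the difference was -0.19. MiR-183 exceeded miR-182 by 3.79 and 3.34 at day 3 and by 0.37 and 2.12 at day 10, and overnight the difference was -0.06. At day 3 the hairpins 116 bases apart thus differed by at most 0.52, and probe 1org-182, of the hairpin 3453 bases away, was 7.94-fold to 13.8-fold below them on the same arrays. The star arm of that hairpin differed more between these arrays, at -0.41 and 2.02. Over all 5 arrays an exact test that turns signs cannot go below p = 0.0625, so none was run.

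The arms of the miR-182 hairpin differed from each other by less than the spread between arrays. MiR-182 minus its star arm was 0.71 on the overnight array, 0.29 and -1.28 on the day 3 arrays and 1.29 and 0.16 on the day 10 arrays. The mean of 0.23 ± 0.96 (SD, n = 5 arrays) is smaller than its spread. On 4 of 5 arrays the difference was above 0. The exception was the day 3 array that had activated cells in Cy3, on which the star arm was at 2.02.

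**Figure D5:**
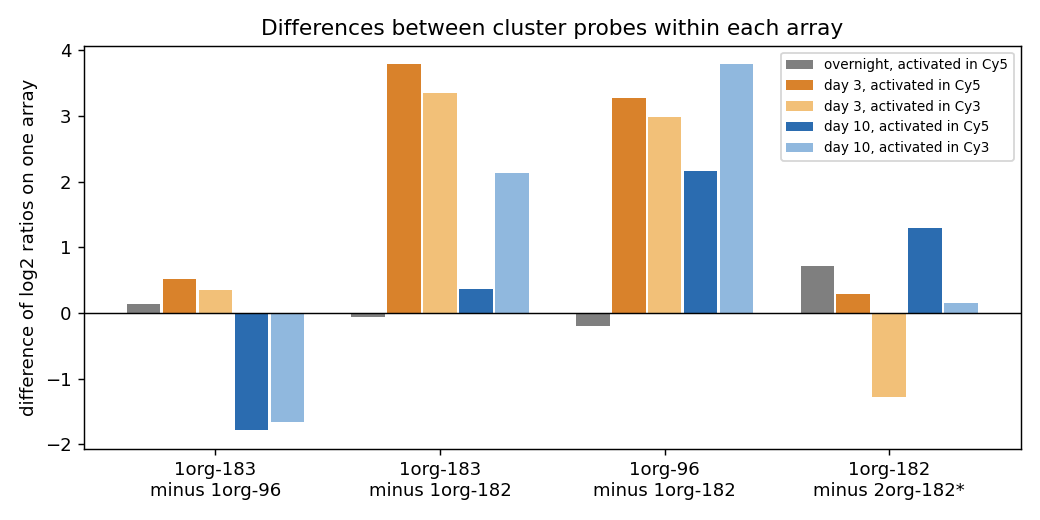
Differences of log2 ratio (activated over naive) between pairs of cluster probes on the same array, with 1 bar for each of the 5 arrays. MiR-183 minus miR-96 is above 0 on the day 3 arrays (0.52 and 0.35) and below on those of day 10 (-1.79 and -1.66), miR-96 minus miR-182 is at least 2.16 on all 4 of these arrays, and miR-182 minus its star arm changes sign.

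The overnight array can be set against the day 3 array that has the same dye orientation, in which a probe's dye effect cancels if both arrays share it. Estimated from each pair as deposited, shifts of the arrays included, the dye effect of miR-183 was -0.21 at day 3 and -0.24 at day 10. That of miR-96 was -0.29 and -0.18, that of miR-182 -0.43 and 0.64, and that of the star arm -1.21 and 0.07. Overnight minus day 3 was -5.78 for miR-183 and -5.40 for miR-96, against a median difference of -1.99 over all probes. MiR-182 (-1.93) and the star arm (-2.36) lay near that median. After centring the differences were -3.83 for miR-183 and -3.45 for miR-96, but 0.01 for miR-182 and -0.41 for the star arm. As deposited 4 of 4 members were 2-fold lower than at day 3, beside 73.7% of probes, and after centring 2 of 4, beside 23.4%. Limma again borrowed the overnight spread from the other times. It called 4 of 4 members lower overnight than at day 3 as deposited, beside 65.5% of probes, so this call did not separate the members. After centring it called 2 of 4 lower, miR-183 and miR-96, beside 12.3% of probes. The fitted differences as deposited were -5.76 for miR-183, -5.45 for miR-96, -2.47 for miR-182 and -3.00 for the star arm. After centring they were -3.54, -3.23, -0.25 and -0.78 in the same order. The overnight side of the comparison is 1 array without its dye swap, and its own spread was not measured.

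Taken over the 3 times as 3 replicates, with the pairs averaged, no member passed limma's test against 0. The means were 1.14 for miR-96, 0.75 for miR-183, -0.83 for miR-182 and -1.14 for the star arm, each with a pooled SE of 0.93 and an adjusted p of 0.85. The spread of a member's own 3 values was 3.00 (SD) for both miR-183 and miR-96, since their sign turned between overnight and day 3. Of all 171 probes limma called 0 in this test, and at an unadjusted threshold of 0.05 it called 3 higher and 8 lower, no member among them.

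Likeness was described without a test, over arrays that all carry naive RNA as control and share their dyes. The probes with patterns most like each member were taken as the 3 at the smallest Euclidean distance over the 5 log ratios. For miR-96 they were 2org-222 (distance 1.34), 2org-221 (1.88) and 1org-301 (2.18). Probe 2org-222 was at -2.43 overnight, 2.64 at day 3 and 2.68 at day 10, and 2org-221 at -2.23, 2.19 and 2.50, so both stayed high at day 10 as miR-96 did. For miR-183 they were 1org-22 (1.55), 2org-212 (1.69) and 1org-298 (1.95). Probe 2org-212 went from 3.95 at day 3 to -0.40 at day 10, and 1org-22 from 3.07 to 0.77. MiR-183 and miR-96 were 2.52 apart, which made miR-96 the 7th nearest of 170 probes to miR-183. By correlation with miR-183 over the 5 arrays as deposited, miR-96 ranked 46th (r = 0.90) and the star arm of miR-182 48th (r = 0.90).

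The arms of miR-182 had other neighbours. Those of miR-182 were 1org-141 (0.78), 2org-28 (0.82) and 1org-126* (0.85), and those of the star arm 2org-217 (0.58), 2org-17-3p (0.91) and 1org-34b (1.06). The arms were 1.98 apart, so the star arm was the 49th nearest to miR-182, and miR-182 the 39th nearest to the star arm. By this distance miR-183 and miR-96 were among the more distant probes from miR-182, at rank 150 and 158 of 170. By correlation over the 5 arrays as deposited they ranked 33rd (r = 0.85) and 42nd (r = 0.83) of 170. Unlike the distance, a correlation depends on the shifts between arrays, which all probes share. The neighbours of miR-182 changed with the measure: none of its 3 stayed when the 3 time values replaced the 5 arrays.

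Other microRNAs linked to lymphocyte activation give the setting for these values. Of 13 such probes, chosen from general knowledge with earlier results of these data known, 12 were at least 2-fold higher at day 3, beside 38% of all probes (11 after centring, beside 15.2%), around a median log2 ratio of 2.64, where all probes had a median of 0.83. MiR-183 and miR-96 lay above that list median and miR-182, at 0.30, below the lowest of the list (0.70, probe 1org-146). At day 10 the list had 6 higher, beside 9.94% of all probes, and 2 lower, beside 17%, around a median of 0.99. The highest of the list at day 3 were 2org-210, numbered as the hypoxia-induced miR-210 (5.03 at day 3 and 4.41 at day 10), 1org-31 (4.99 and 0.54) and 2org-214 (4.96 and -1.75). Of these the first, like miR-96, was 2-fold higher at both times, and 1org-31, like miR-183, at day 3 alone.

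A list of microRNAs known to act on Foxo1 was taken from outside the cluster, so it does not cover the members. Of its 6 probes, 3 were 2-fold higher at day 3 and none lower, beside 38% and 12.9% of all probes, around a median of 0.99. They were 1org-27b (1.93 ± 0.65, SD, n = 2 arrays), 1org-27a (1.36 ± 0.29) and 2org-139 (1.04 ± 0.68). After centring 1 was higher, beside 15.2%, and 1 lower, beside 19.9%. At day 10 the list had 2 higher (1org-27a and 1org-27b), beside 9.94%, and 1 lower, beside 17%, which was 2org-223 at -1.44. Foxo1 itself was not measured.

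Of 10 probes for microRNAs known from neural and sensory tissue, where the cluster is most familiar, 3 were 2-fold higher at day 3 (1org-129, 2org-218 and 1org-137), beside 38% of all probes, and none lower, beside 12.9%. Their median of 0.90 was close to that of all probes at 0.83, and after centring 1 was higher, beside 15.2%. At day 10 none was higher, beside 9.94%, and 3 were lower, beside 17%, and none of either after centring. The values of miR-183 and miR-96 at day 3 were above the highest of this list, 2.15.

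The median of the probes listed here as resting lymphocyte markers was lowest at day 3, when miR-183 was highest. MiR-96 was also highest then as deposited, but level at days 3 and 10 after centring (2.62 and 2.68). Like the other lists, this list was chosen with earlier results of these data known, and its probes need not be particular to resting lymphocytes. All 5 (1org-150, 1org-181, 1org-142-s, 1org-142-as and 1org-26a) were 2-fold lower at day 3, beside 12.9% of probes, with a list median of -4.44 and -3.69 on the arrays. At day 10, 3 of 5 were lower, beside 17% of probes, and 1 after centring, beside 4.09%. At day 3 the erythroid marker 1org-144 had a mean log2 ratio of 1.03 ± 0.71 (SD, n = 2 arrays), and 0.215 after centring. The myeloid marker 2org-223 had a mean of -0.24 ± 1.59, with opposite signs on its arrays, and -1.05 after centring. Of 7 stromal and muscle probes 2, and of 6 epithelial probes 1, were 2-fold higher at day 3, beside 38% of all probes, and none of either list after centring, beside 15.2%. The list medians on the day 3 arrays were 0.20 and 1.82 for the stromal and muscle list and 2.41 and -1.01 for the epithelial list, whose miR-200 probes differed widely between the dyes. A ratio holds no level, so these probes do not show whether a marker is present, and the part of other cells in the members' values was not tested.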

How the data were processed

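The authors deposited 1 signed log ratio per probe and array, 178 probes on 5 arrays with 0 missing values, and these deposited values were read as log2. Log base, numerator, scanner, background correction and normalization are unstated in the sources used here. Groups and dyes came from the labels. The sign of arrays with activated RNA in Cy3 was turned, pairs were averaged, and no value was filtered. The main comparisons used the size rule given above. With R 4.3.3, limma 3.58.1 was fitted (lmFit, then eBayes; 2-sided tests, adjusted by Benjamini-Hochberg, limit 0.05) to all 171 microRNA probes, over the 3 time values and, as an alternative, over 5 arrays with time and dye terms. It was tested on simulated data. Named probes were the 4 members, up to 3 probes of each list by size at day 3 with its markers, and the 3 nearest probes of each member. The members and lists were chosen with earlier results of these data known. Alternatives were centring, scaling, threshold, limma in place of the size rule, single arrays left out, and other measures of likeness.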

Additional observations from a re-analysis of the deposited data

Results flagged for a closer look

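Several differences between times of miR-183 or miR-96 passed in limma both as deposited and after centring. MiR-183 was lower at day 10 than at day 3 (log2 difference -3.35 as deposited and -2.10 after centring), while that difference of miR-96 did not pass (limma adjusted p = 0.094, and 0.96 after centring). Overnight, miR-183 lay below day 3 by a fitted difference of -5.76, or -3.54 after centring. MiR-96 did so by -5.45, or -3.23 after centring. Against day 10, overnight miR-96 was lower by a fitted difference of -4.25, or -3.29 after centring. All these overnight differences rest on 1 overnight array whose spread limma borrows from the other times. They are therefore values rather than tests of overnight variation. No time had 4 or more arrays, so single arrays were not checked for values far from the rest.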

How the results depend on the processing

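Centring the arrays left miR-183 and miR-96 higher at day 3 and miR-96 higher at day 10, and it ended 3 of the 4 overnight calls (1 lower, the star arm). The count of members lower at day 10 rose from 1 to 2 with arrays at the same scale and with a 1.5-fold limit, and lay between 1 and 2 with single day 10 arrays left out, miR-182 being added without the array with activated RNA in Cy5. Between days 10 and 3 the count of lower members lay between 2 and 4 with single arrays left out. Overnight minus day 3 in the same dye moved on centring to -3.83 for miR-183, -3.45 for miR-96 and -0.41 for the star arm, and reversed to 0.014 for miR-182, by the shift that centring takes off; against the day 10 array it was -2.39 for miR-183 and -4.31 for miR-96. MiR-182 minus its star arm ranged from -0.03 to 0.61 with single arrays left out. Of the 3 nearest probes, 0 stayed for miR-182 over the 3 time values, and with correlation 0 stayed for miR-183, 1 for miR-96 and 1 for miR-182. Without any 1 array no member passed limma over the 3 times (0 of 4). Of the lists, centring changed the activation probes overnight to 7 higher and 0 lower (2 lower at the same scale) and at day 10 to 1 lower; the Foxo1-linked probes to 0 lower overnight, 1 higher and 1 lower at day 3 and 0 lower at day 10 (2 lower at the same scale); and the neural and sensory probes to 1 lower overnight, 1 higher at day 3 and 0 lower at day 10 (5 lower at the same scale). Beyond the shift that centring takes off, the cause of these changes was not tested. No paired analysis was possible because the labels give the groups no shared replicate numbers; the dye orientation that arrays share across times entered limma as a term. Signal over background was not analysed here, so depth sets no limit that can be stated.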
